A study of Mus musculus with 6 samples.

Results

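A set of 192 genes was examined whose 3 values in MSC treated cochleae all lay below their 3 values in sound trauma cochleae. The members were chosen from the deposited table of 41096 genes by the measured values themselves. A gene entered if its value was at least 20 in all 6 libraries, if the highest MSC treated value was below the lowest sound trauma value, and if the authors' lists of changed genes gave it a symbol. Symbols of several large families (such as Slc, Kcn, Zfp, Col, Rab, Nduf and Hsp genes) were left out. Of 13763 genes with 6 values of at least 20, 372 were separated in this way (2.70%, beside 4.19% separated in the upward direction), 217 of these had a symbol, 25 fell in the omitted families and 192 remained. Among the 2667 named genes that met every other part of the rule, the members made up 7.20%. All 192 are in the authors' list of down-regulated genes and 0 in the list of up-regulated genes. Because the difference between the groups chose the members, that difference is described here and was not used as evidence.

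The libraries were made from the left cochlea of female C57BL/6 mice that were 4 weeks old, and every animal was exposed to a 16 kHz sound for 4 h. In the MSC treated group (specimens 13, 18 and 20), human mesenchymal stromal cells (MSC), isolated from Wharton's jelly (the connective tissue of the cord) of 3 umbilical cords, were injected in 1 µl into the posterior semicircular canal 48 h after the sound. The sound trauma group (specimens 6, 8 and 10) is labelled as exposed to sound only, while the methods describe an injection of artificial perilymph without cells. The labels place RNA extraction 48 h after treatment and the methods 72 h. The methods give 5 animals in each group, of which 3 libraries per group were analysed here, and no animals without sound exposure were analysed here. The hour of the day at which tissue was taken is not given in the sources used here. Values are scaled counts, that is, read counts multiplied by 1 factor per library, and are always given in the order of specimens 6, 8 and 10 against specimens 13, 18 and 20. Levels are compared between genes only by FPKM, a read count corrected for gene length and library depth. The authors gave FPKM as group means without a spread.

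Several of the members belong to the circadian clock. In this clock, an activator pair binds E-box elements and drives the Per and Cry repressors, which in turn shut the activators off, while the nuclear receptors of the Nr1d family form a side loop through elements shared with the Ror receptors, and the factors Dbp and Tef pass the rhythm on through D-box elements. The cochlea is known to hold such a clock. A further group of members belongs to cilia, and not all of them are particular to motile cilia. The axoneme of a motile cilium carries dynein arms and is assembled by intraflagellar transport.

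The 6 libraries held between 9170390 and 11030863 reads on genes and were unlike in the tissue they carried. The 4 markers of hair cells and sensory epithelium were present in every library, with summed scaled counts of 1475 to 3682 in sound trauma and 2495 to 3140 in MSC treated animals. Most of each sum came from Otog, at 1118 to 2932 over the 6 libraries, while Pou4f3 and Lhfpl5 were low, between 15.3 and 53.4. The 7 markers of cerebellum and brainstem summed to 18343 in specimen 8 and 2306 in specimen 6, against 114 in specimen 10 and 160.2 to 340.1 in MSC treated animals. The 4 pituitary markers summed to 295374 in specimen 6 and to 1243 to 22150 in the others (Prl, Gh, Pomc and Tshb). The 5 skeletal muscle markers ranged from 20744 to 539350 in sound trauma and from 43203 to 288687 in MSC treated animals, with specimens 6 and 13 highest. The 4 choroid plexus markers ranged from 333 to 8082 and from 275 to 375. The 2 named genes on the list for spiral ganglion neurons, the auditory neurons of the cochlea, were Snap25 and Ntrk3. Their sum ranged from 3479 to 13613 in sound trauma, highest in specimen 8, and from 3485 to 5197 in MSC treated animals. Snap25 gave 12397 of the sum in specimen 8, and the part of other neurons in this sum was not tested. The 3 named myelin markers ranged from 9246 to 27875 and from 8424 to 20288, and the 4 epidermal markers from 32.2 to 980.0 and from 27.0 to 36.9, with Krt1 and Krtdap at 0 in some libraries. Specimens 6 and 8 thus lay above the other 4 libraries in the cerebellum and brainstem and choroid plexus sums, and values of a named member without a library are given where they move its difference by more than 1.5 times. In bulk tissue, fewer cells of a type and less RNA per cell cannot be told apart.

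**Figure D1:**
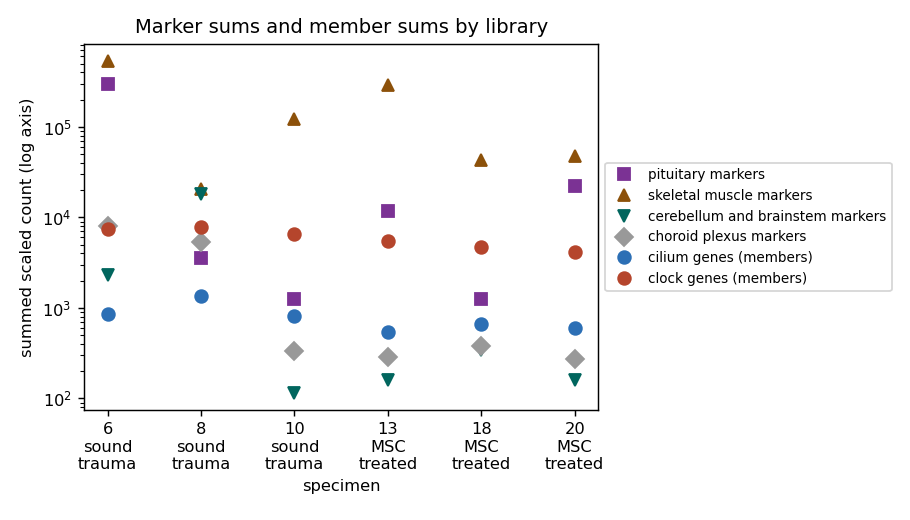
Summed scaled counts (log axis) of marker genes of 4 neighbouring tissues and of the clock and cilium members in each of the 6 libraries, with 1 symbol per sum. The cerebellum and brainstem sum spans from 114 in specimen 10 to 18343 in specimen 8, while the clock sum lies between 4099 and 7739 in all 6 libraries.

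The members differed from the remaining down-listed genes in which animals carried the difference. Relative to the MSC treated mean, the median member was higher by 0.38 on the log2 scale in specimen 6, by 0.48 in specimen 8 and by 0.22 in specimen 10. For the 1568 other down-listed genes that met every other part of the rule, these medians were 0.57, 0.88 and -0.05, and 940 of them (59.9%) were below the MSC treated mean in specimen 10. The rule itself requires specimen 10 to lie above every MSC treated value, so this contrast is part of how the members were chosen. Of the 192 members, specimen 8 gave the highest value in 119, specimen 6 in 58 and specimen 10 in 15. The lowest sound trauma value was that of specimen 10 in 125 members. Sound trauma values of a member spanned a median of 1.30-fold from lowest to highest, against 2.71-fold for the other down-listed genes, and MSC treated values spanned 1.15-fold against 1.45-fold. A rule that separates the groups favours genes with a narrow spread within a group, so these spans also follow from the choice.

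**Figure D2:**
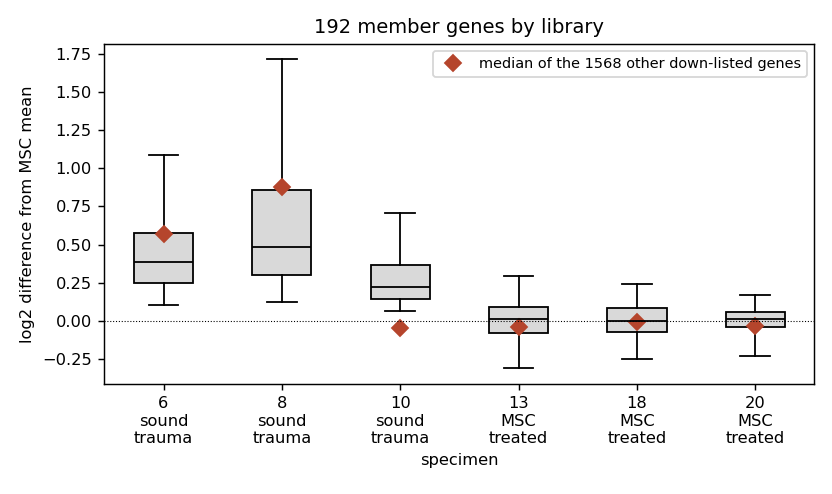
Log2 difference of each library from the MSC treated mean, with boxes for the 192 members (median, quartiles and whiskers from the 5th to the 95th percentile) and diamonds for the median of the 1568 other down-listed genes. The diamonds reach 0.88 in specimen 8 and fall to -0.05 in specimen 10, whereas the median of the members is above 0.2 in each sound trauma library.

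Differences between the group means were mostly modest. The MSC treated mean was lower by a median of 24.1%, with quartiles of 16.2% and 35.6% and a range from 6.05% to 75.3%. In 12 members it was at least 50% lower, in 106 members 20% to 50% lower, and in 74 members less than 20% lower. The fitted log2 differences had a median of -0.38 and ranged from -1.51 to -0.09, where the median of all 15970 genes tested was 0.001. The gap between the groups, which is the distance of the lowest sound trauma value above the highest MSC treated value, had a median of 4.89%. It was at least 20% in 13 members, between 5% and 20% in 79 members and below 5% in 100 members. Without specimen 8 the median MSC treated mean was 19.0% lower, and 4 in place of 12 members were at least 50% lower. Leaving out specimen 8 moved this difference by more than 1.5 times in 48 members, and leaving out specimen 6 did so in 17. Without specimen 10 the number at least 50% lower was 31.

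**Figure D3:**
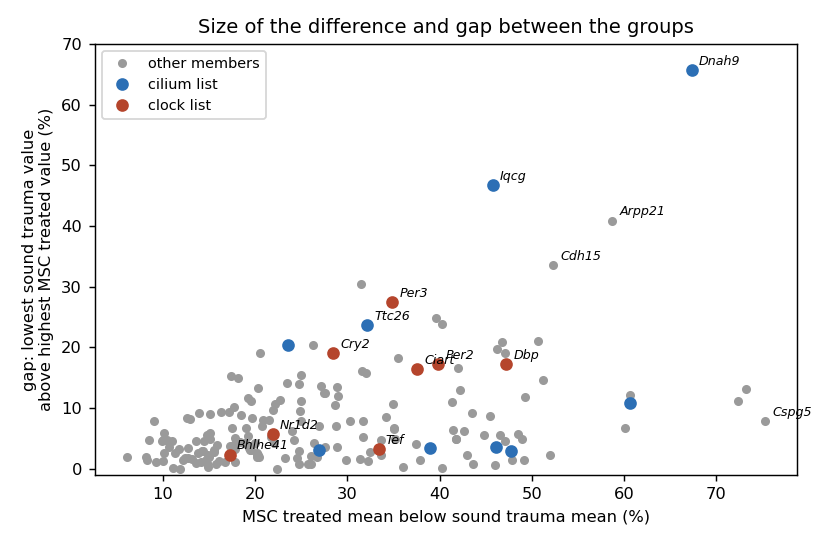
Each point is 1 of the 192 members, placed by how far its MSC treated mean lay below its sound trauma mean (horizontal axis, %) and by the gap between the lowest sound trauma and the highest MSC treated value (vertical axis, %). Most points lie low on the gap axis, Dnah9 has the widest gap at 65.7%, and Cspg5 has the largest difference of means at 75.3% with a gap of 7.82%.

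With limma on log2(scaled count + 1) and Benjamini-Hochberg adjustment over the 15970 genes, 0 genes (0.00%) and 0 members passed an adjusted p of 0.05, with 0.954 as the smallest. Taking an unadjusted p of 0.05 as the limit, 107 genes were lower (0.670%) and 269 higher (1.68%) in MSC treated animals, and 47 of the lower genes were members. The rule used the same contrast, so nothing is read from that share. The quasi-likelihood test of edgeR, DESeq2 and limma-voom on recovered reads likewise called 0 genes after adjustment, with 58, 62 and 48 members below the unadjusted limit.

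Genes of the circadian clock and its output made up 8 members of the 16 listed genes that could have been members (50%, beside 7.20% over all 2667 named genes), and 15 of these 16 are in the down list. The clock list held 24 entries, and only genes with a symbol in the authors' lists of changed genes could be members. The 8 are Per2, Per3, Cry2, Ciart, Nr1d2, Bhlhe41, Dbp and Tef. Their summed scaled counts were 7407, 7739 and 6577 against 5492, 4692 and 4099. Every sound trauma library was above every MSC treated library in this sum, as the choice of members fixes. The median log2 difference of the 8 was -0.60 and also -0.60 over all 16, beside 0.001 over all genes tested. In limma, 0 of the 16 had an adjusted p under 0.05 and 8 were lower at an unadjusted p under 0.05, where 0.670% of all genes tested were. The 8 were chosen on this contrast and the 16 come from the authors' lists of changed genes, so nothing is read from these values.

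Promoter sequences of 4 clock members are shown because they hold E-box or D-box letters, the elements through which clock factors are known to act. Each run is the 250 bases before the start of the gene, 5′ to 3′ on the strand of the gene, from the RefSeq promoter table of GRCm38.p6, with the E-box CACGTG in capitals in the promoters of Ciart (chr3:95882229-95882478, minus strand), Tef (chr15:81802423-81802672, plus strand, with 2 starts in the table and the more upstream entry shown) and Bhlhe41 (chr6:145865421-145865670, minus strand), and the D-box TTATGTAA in capitals in that of Per3 (chr4:151044666-151044915, minus strand).
Ciart: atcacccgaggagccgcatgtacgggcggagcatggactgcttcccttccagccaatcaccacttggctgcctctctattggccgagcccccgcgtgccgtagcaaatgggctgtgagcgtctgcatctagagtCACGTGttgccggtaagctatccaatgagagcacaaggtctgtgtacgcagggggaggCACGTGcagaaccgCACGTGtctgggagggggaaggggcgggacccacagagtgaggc
Tef: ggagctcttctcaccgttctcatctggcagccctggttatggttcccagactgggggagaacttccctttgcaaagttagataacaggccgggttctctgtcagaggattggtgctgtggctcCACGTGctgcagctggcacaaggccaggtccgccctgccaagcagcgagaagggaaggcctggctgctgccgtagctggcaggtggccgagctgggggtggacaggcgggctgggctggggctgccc
Bhlhe41: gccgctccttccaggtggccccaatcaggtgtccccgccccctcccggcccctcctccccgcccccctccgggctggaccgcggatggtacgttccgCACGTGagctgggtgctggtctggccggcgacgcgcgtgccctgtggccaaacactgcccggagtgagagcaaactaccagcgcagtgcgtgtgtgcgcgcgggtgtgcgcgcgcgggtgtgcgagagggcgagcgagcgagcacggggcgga
Per3: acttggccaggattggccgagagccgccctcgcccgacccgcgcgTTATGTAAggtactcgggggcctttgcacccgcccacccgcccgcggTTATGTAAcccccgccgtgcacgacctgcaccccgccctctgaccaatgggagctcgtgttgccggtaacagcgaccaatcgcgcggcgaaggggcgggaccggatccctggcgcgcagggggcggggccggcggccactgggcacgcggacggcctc

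Ciart held 3 E-boxes, at 116 to 111, 58 to 53 and 44 to 39 bases before its start. Tef held 1 E-box at 127 to 122 bases and Bhlhe41 held 1 at 153 to 148 bases before the start. Per3 held 2 D-boxes, at 205 to 198 and 158 to 151 bases. Of the 8 clock members, 7 were in the promoter table, and CACGTG was found on either strand in 3 of the 7. The same letters were in 6.86% of the promoters of 27025 genes, in 9.89% of 2094 named genes that could have been members, and in 20 of the 160 members with a promoter (12.5%). TTATGTAA was in 0.977% of all promoters. Cry2 held the variant CACGTT, which was in 4.50% of all promoters, and Dbp and Nr1d2 held none of these 3 motifs in this window. A match describes the letters only, and no match says only that these letters are not in this window.

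Among the repressors, Per3 (MGP_C57BL6NJ_G0029591) had scaled counts of 557, 730.4 and 661 against 437, 430.0 and 402. The groups were separated by a gap of 27.4%, the widest of the clock genes, and the MSC treated values lay close together. The means were 649.7 ± 87.1 and 423 ± 18.7 (SD, n = 3 each), with a log2 difference of -0.61 (standard error 0.14). Per2 (MGP_C57BL6NJ_G0016706) had 541, 800.2 and 578 against 366, 462 and 327, so that specimen 8 was highest and specimens 6 and 10 were alike. Its log2 difference was -0.73 (standard error 0.21). Cry2 (MGP_C57BL6NJ_G0026589), which pairs with the Per proteins, had 790.4, 1061 and 820.2 against 587, 659.8 and 664. Here too specimen 8 was highest, and the log2 difference was -0.47 (standard error 0.15). Ciart, a repressor of the activator pair, had 138, 166 and 142 against 90.4, 118 and 69.9, with MSC treated specimen 18 nearest to the sound trauma range.

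Of the genes in the side loops, Dbp (MGP_C57BL6NJ_G0032724), a D-box activator, had the largest difference of the clock members. Its scaled counts were 1689.7, 1264 and 1286 against 1078, 603 and 557. Specimen 6 was highest, and MSC treated specimen 13 lay nearer to the sound trauma libraries than to specimens 18 and 20. The mean was 47.2% lower, with a log2 difference of -0.97 (standard error 0.28). Tef, a relative of Dbp that binds the same element, had 2601, 2764 and 2101 against 2035, 1575 and 1363. Specimens 10 and 13 nearly met, and the gap was 3.25%. Nr1d2, a nuclear receptor that represses transcription, had 371, 373 and 349 against 330.4, 279 and 245, with the sound trauma values close together. Bhlhe41, a repressor that binds E-boxes, had 719, 580.3 and 639.7 against 567, 566 and 472, and its mean was lower by 17.2%, the smallest difference of the 8.

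Sound trauma values of the clock members spanned 1.07-fold to 1.48-fold, and the part of other tissues in these values was not tested. Without specimen 8 the MSC treated mean of the clock members was lower by a median of 30.0%, against 34.1% with all libraries, and without specimen 6 by 35.7%. Specimen 8 was highest in 6 of the 8, among them Nr1d2 by a small difference, and specimen 6 was highest for Dbp and Bhlhe41. By the authors' group means, Dbp had the highest level per length, at 46.7 FPKM in sound trauma and 25.8 FPKM in MSC treated animals, and Ciart the lowest in sound trauma at 6.49 FPKM with 4.24 FPKM in MSC treated animals.

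**Figure D4:**
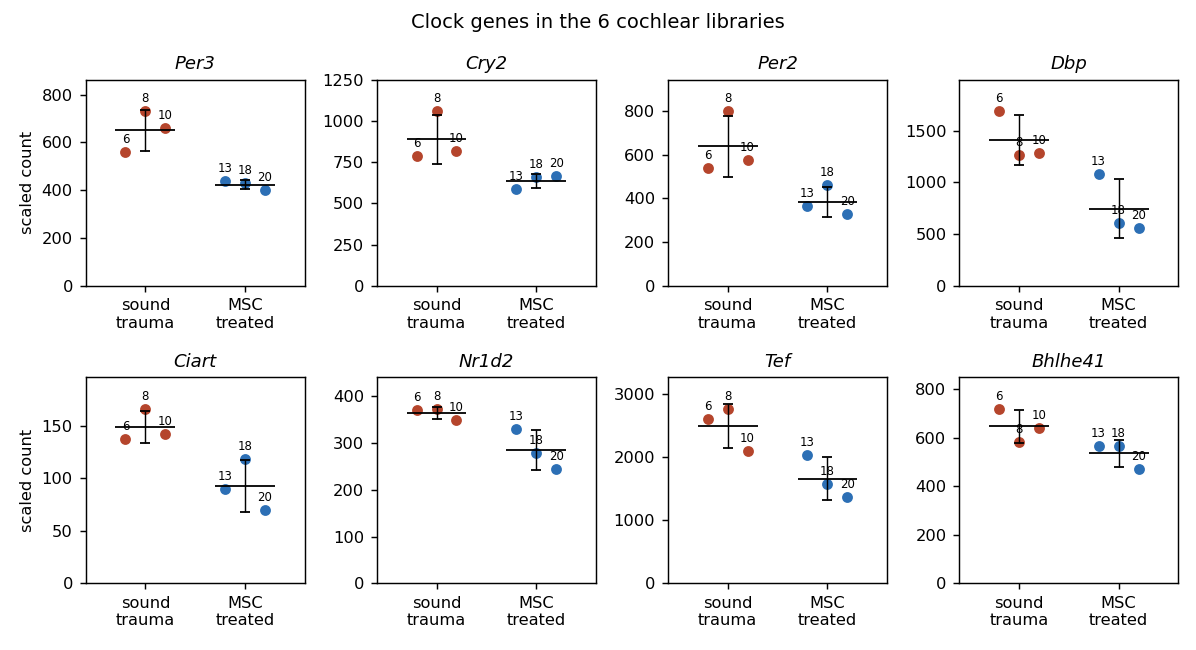
Scaled counts of the 8 clock members in each library (points, labelled by specimen), with the mean (line) and SD (bars, n = 3 per group) on axes that start at 0. In each panel the 3 MSC treated points lie below the 3 sound trauma points, with the widest gap in Per3 (27.4%) and the narrowest in Bhlhe41 (2.31%).

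The other 8 genes of the clock list did not separate. Nr1d1, the close relative of Nr1d2, had 3610.1, 2486 and 2644 against 2538, 1672 and 1549 and missed separation by 2.06%, because MSC treated specimen 13 exceeded sound trauma specimen 8. Hlf, of the same family as Dbp and Tef, had 642, 1100.4 and 675 against 504, 659.8 and 546, with specimen 18 above specimen 6. Cry1 had 197, 314 and 165 against 179, 145 and 150.5, with specimen 13 above specimen 10. Bhlhe40, Rora and Rorb had mean values 16.3% to 43.7% lower in MSC treated animals and overlapped between the groups. Timeless, the only clock gene in the up list, had 268, 370.0 and 522 against 375, 469 and 585, a mean that was higher in MSC treated animals with a wide overlap. The clock members depended on the scaling. With libraries scaled to total reads, Per2, Cry2 and Ciart no longer separated while Nr1d1 did. With the upper quartile Bhlhe41 was lost, by median ratio Hlf was gained, and 4 clock genes (Per3, Dbp, Tef and Nr1d2) separated under every scaling.

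The list of cilium genes held 9 members of 53 that could have been members (17.0%, beside 7.20% over all named genes), and 49 of the 53 are in the down list. The list was drawn up partly by symbol stems such as Dnah, Ift, Wdr and Ttc, so it also holds genes not specific to cilia, among them Wdr26, Ttc3 and Armc8. Their summed scaled counts were 846, 1351 and 805 against 536, 658 and 601. The median log2 difference of the 9 was -0.69 and that of all 53 was -0.49, beside 0.001 over all genes tested. In limma, 0 of the 53 had an adjusted p under 0.05 and 4 were lower at an unadjusted p under 0.05, beside 0.670% of all genes tested. The 9 were chosen on this contrast and the 53 come from the authors' lists, so these values too are given as a description. Specimen 8 was highest in 7 of the 9. In the same 6 libraries the 4 choroid plexus markers summed to 8082, 5399 and 333 against 286, 375 and 275, and the part of choroid plexus or brain tissue in the cilium values was not tested.

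The dynein arms were represented by Dnah9 and Dnah1. Dnah9 (MGP_C57BL6NJ_G0018871), a heavy chain of the outer dynein arm, had the widest gap of all 192 members, at 65.7%. Its scaled counts were 129.8, 190.3 and 79.5 against 45.7, 48 and 36.9. Specimen 8 was highest and specimen 10 lowest of the sound trauma libraries, and the MSC treated values lay close together. The means were 133 ± 55.4 and 43.5 ± 5.87 (SD, n = 3 each), with a log2 difference of -1.51 (standard error 0.35), and without specimen 8 the MSC treated mean was 58.4% lower in place of 67.3%. Dnah1, an inner arm heavy chain, had 45.2, 106 and 59.0 against 29.1, 43.9 and 36.9, and specimens 6 and 18 nearly met. Spag1 and Ccdc39, which are needed for the assembly and attachment of dynein arms, had 56.8, 157 and 52.7 against 50.9, 48 and 44.7 and 64.9, 133 and 58.1 against 45.7, 56.2 and 54.4. In both, specimen 8 alone was far above the other 5 libraries. Without it, the MSC treated means were 12.6% lower for Spag1 in place of 46.1%, 15.3% for Ccdc39 in place of 38.9%, and 29.7% for Dnah1 in place of 47.7%.

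Of the genes of the dynein regulatory complex, Iqcg (MGP_C57BL6NJ_G0023166) had 52.2, 72.7 and 46.5 against 31.2, 31.7 and 30.1. The gap of 46.7% was the second widest of the members, with nearly equal MSC treated values. Drc7 had 47.5, 133 and 60.8 against 21.8, 42.9 and 30.1. The intraflagellar transport genes Ttc26 and Ift43 were not led by specimen 8. Ttc26 had 74.2, 63.1 and 58.1 against 46.8, 47.0 and 38.8, highest in specimen 6. Ift43 had 110.1, 111 and 130.4 against 91.4, 87.8 and 89.3, highest in specimen 10, with a gap of 20.4%. Crocc, which forms the ciliary rootlet, had 265, 385 and 260.0 against 174, 252 and 239.8, and its mean was 26.9% lower with all libraries and 15.5% lower without specimen 8. Without specimen 8 the MSC treated mean of the 9 was lower by a median of 29.7%, against 45.7% with all libraries.

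Of the other genes of the list with 6 values of at least 20, all but Dynlt3 overlapped between the groups. Dynlt3 went the other way, with 634, 569 and 593 against 658, 752 and 776, so that every MSC treated value was above every sound trauma value. Lrrc51, Zmynd10 and Tekt1 were among genes lower in MSC treated animals that did not overlap but fell below that minimum, with gaps of 42.6%, 26.1% and 17.5%. Foxj1, the transcription factor that switches on the motile cilium program, had 127, 327 and 147 against 109, 150.1 and 134, with MSC treated specimens 18 and 20 above sound trauma specimen 6. Dnah5, a partner of Dnah9 in the outer arm, had 30.1, 269.6 and 88.4 against 34.3, 61.3 and 33.0, and specimen 6 was below all 3 MSC treated libraries. Rsph1, a radial spoke gene, missed separation by 3.78%. With libraries scaled to total reads, Ccdc39, Crocc, Drc7, Dnah1 and Spag1 no longer separated and 4 cilium genes remained. In the promoters of the 8 cilium members in the table, the RFX X-box, the element bound by the factors that control ciliary genes, was found in 0, where 1.49% of all promoters held it.

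**Figure D5:**
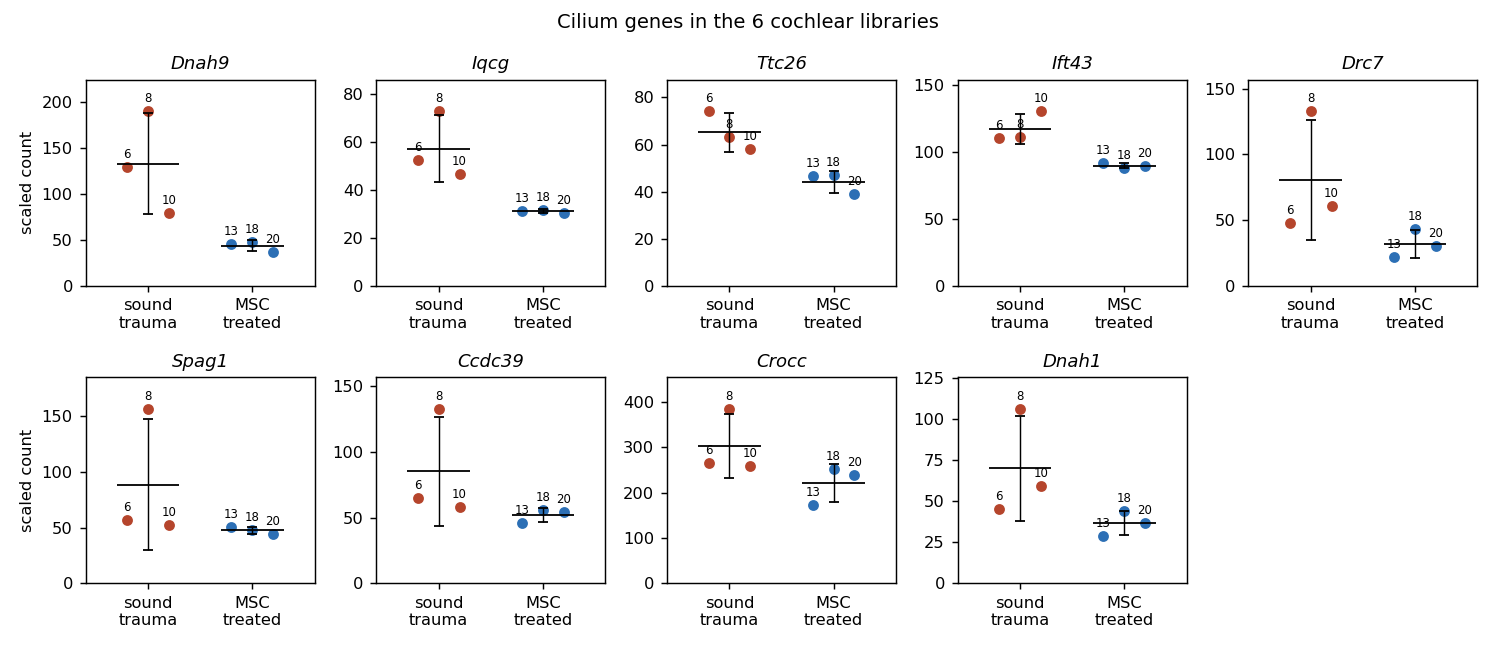
Scaled counts of the 9 cilium members in each library (points, labelled by specimen), with the mean (line) and SD (bars, n = 3 per group) on axes that start at 0. Specimen 8 is the highest point in 7 panels, Ttc26 is highest in specimen 6 and Ift43 in specimen 10.

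Outside these 2 groups, the widest gaps were in genes of varied function. Arpp21 (MGP_C57BL6NJ_G0035874), a phosphoprotein regulated by cyclic AMP in neurons, had 299, 493 and 243 against 172, 118 and 137. Each sound trauma value was clear of the MSC treated range by a gap of 40.9%, and without specimen 8 the MSC treated mean was 47.4% lower in place of 58.7%. Cdh15, a cadherin known from muscle and cerebellum, had 223, 427 and 198 against 149, 110.3 and 146, with a gap of 33.5%. B3galt2, a galactosyltransferase, had 118, 145 and 97.4 against 60.3, 76.6 and 78.6, and specimen 10 was nearest to the MSC treated values. Tceal5, a gene of the X chromosome related to a transcription elongation factor, had 162, 199.8 and 117 against 96.6, 73.5 and 66.0. Ccdc191, Ulk4 and Ppt2, a lysosomal thioesterase, had gaps of 20.4%, 19.8% and 19.1%. The values of Ppt2 were 231, 254 and 228 against 189, 186 and 191.

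Several of the largest differences of the means rested on specimen 8. Cspg5, a proteoglycan of neurons and glia, had 170.4, 679 and 94.7 against 68.6, 87.8 and 76.7, and its MSC treated mean was 75.3% lower with all libraries and 41.4% lower without specimen 8. Cpne9, a calcium-binding copine, had 81.1, 511 and 76.8 against 49.9, 61.3 and 67.9, and the difference of 73.2% became 24.4% without specimen 8. Cdhr3 and Cacna1g behaved alike. Cdhr3, a cadherin-related gene, went from 72.3% to 36.3% lower, and Cacna1g, the pore of a T-type calcium channel, from 60.6% to 25.5% lower. Specimen 8 was highest in 29 of the 32 members whose sound trauma values spanned more than 2-fold, and it was also the library with the highest cerebellum and brainstem marker sum, of 18343. The part of that tissue in these members was not tested.

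The remaining lists are given by their share of members, to be set beside 7.20% of all named genes and 10.9% of the 1760 down-listed genes that could have been members. The list of synaptic genes held 4 members of 139 that could have been members (2.88%), and 134 of the 139 are in the down list. They included Lrfn3 and Homer3 besides Cacna1g. Lrfn3, a synaptic adhesion molecule, had 143, 218 and 131 against 84.2, 88.9 and 113. Homer3, a scaffold of metabotropic glutamate receptors, had 359, 1146 and 354 against 296, 327 and 335. These 3 were highest in specimen 8, and without it the MSC treated mean of Homer3 was 10.5% lower in place of 48.5%. Among immediate early and activity-induced genes, 3 of 20 were members (15%), and 18 of the 20 are in the down list. Egr1, an early response factor, had 868, 938 and 870.2 against 730.4, 831 and 622. Its sound trauma values were close together, and the gap to specimen 18 was 4.41%. Dusp8 and Dusp14, phosphatases of the MAP kinase pathway, had gaps of 10.9% and 6.68%, and their means were 41.3% and 35.0% lower with all libraries and 25.1% and 22.5% lower without specimen 8.

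Of 21 genes of amino acid and one-carbon metabolism, all in the down list, 3 were members (14.3%). Mtrr, which keeps methionine synthase active, had 209, 145 and 129 against 108, 71.5 and 75.7, and its mean was 47.1% lower. Psph, the last enzyme of serine synthesis, had 116, 118 and 101 against 90.4, 78.6 and 91.2. Shmt2, the mitochondrial serine hydroxymethyltransferase, had 814, 723 and 752 against 702, 616 and 643. The 6 mitochondrial members of 89 (6.74%) were Mrpl46, Coa7, Immp2l, Letm1, Lyrm1 and Timm50. Mrpl46, a protein of the mitochondrial ribosome, had 204, 188 and 176 against 128, 154 and 153, with a gap of 14.1%. Timm50, of the inner membrane import machinery, had 496, 435 and 357 against MSC treated values of 353, 352 and 353. Specimen 6 was highest in Immp2l, Letm1 and Timm50, whose MSC treated means were 35.0%, 20.3% and 17.8% lower with all libraries and 20.0%, 11% and 10.9% lower without it. Lists of glycolysis, of lipid metabolism and of imprinted genes held 0 members, of 22, 52 and 15 genes that could have been members.

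Of the 46 genes of RNA processing, ribosome and tRNA charging, 5 were members (10.9%). Rpusd3, a pseudouridine synthase, had 89.2, 94.6 and 75.9 against 65.5, 51.1 and 61.2. Snrpd3, a core protein of spliceosomal particles, had 570.2, 481 and 495 against 435, 441 and 436, so that the MSC treated values differed by little. Wars, the cytosolic tryptophan tRNA synthetase, had 767, 719 and 636 against 592, 604 and 607. Genes known by a clone or model name and noncoding transcripts gave 10 members of 81 (12.3%), of which 4732491K20Rik, Gm13563 and D630045J12Rik had gaps of 30.4%, 24.9% and 20.8%. D630045J12Rik codes for a protein, and its mean was 46.7% lower with all libraries and 26.8% lower without specimen 8. Gm13563 had low values of 42.9, 44.9 and 33.9 against 24.9, 21.4 and 27.2. Whether the counting used strand is not given in the sources used here, so reads of an antisense transcript such as Ccpg1os cannot be told apart from those of its partner.

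Vesicle and Golgi traffic gave 6 members of 86 (6.98%), with Tbc1d22b, Plekhh1 and Epn1 at gaps of 11.2%, 7.08% and 4.67%. The mean of Plekhh1 was 26.9% lower with all libraries and 16.7% lower without specimen 13. Epn1, an endocytic adaptor, had 3328, 3435 and 3315 against 3168, 2929 and 2970.3 and was among the most abundant members per length, at 118 FPKM in sound trauma and 111 FPKM in MSC treated animals by the authors' means. Cx3cl1, a chemokine, had 598, 1108 and 620.0 against 520.5, 555 and 514, and was 1 of 3 members among 78 immune genes (3.85%), beside the mast cell tryptase Tpsb2 and Irf2bp1. Of these 78 genes 18 are in the down list, and the median log2 difference of the list was 0.35, higher in MSC treated animals. The mean of Cx3cl1 was 31.7% lower with all libraries and 13.0% lower without specimen 8. Of 86 secreted and matrix genes, 3 were members (3.49%), 38 are in the down list, and the median log2 difference was 0.20, again higher in MSC treated animals. These were Gdf11, a ligand of the TGF-beta family, Lrrn1 and Kera, a corneal and connective tissue proteoglycan. Gdf11 had 251, 228 and 253 against 211, 147 and 191, with even sound trauma values. The mean of Lrrn1 was 17.7% lower with all libraries and 11.6% lower without specimen 13. Kera had 166, 77.4 and 104 against 67.5, 23.5 and 75.7, the widest MSC treated spread of the members, at 3.22-fold. The transcription factor Nfib had 358, 379.6 and 387 against 349, 282 and 267. Wnk2 of 150 kinase and signalling genes had 1862, 2226 and 1679 against 1604, 1589 and 1177, and 4 of these 150 were members (2.67%). Nek3 and Mcm8, of 21 cell cycle and DNA repair genes, had gaps of 13.9% and 10.4%, and Alg3, an enzyme of N-glycan synthesis, had a gap of 2.96% as the other member, beside B3galt2, of 47 glycan genes. Without specimen 6 the mean of Alg3 was 11.4% lower in place of 24.7%.

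Atp2a2, the calcium pump of the sarcoplasmic and endoplasmic reticulum, was 1 of 2 muscle list members of 72 (2.78%) and had 5051, 6274 and 4389 against 3901, 3771 and 3725. The skeletal muscle marker sum ran from 20744 to 539350 in sound trauma and from 43203 to 288687 in MSC treated animals, and the part of muscle tissue in the values of Atp2a2 was not tested. The other was Myh7b, a myosin heavy chain, with 149.5, 167 and 64.3 against 55.1, 60.3 and 36.9, where specimens 6 and 8 were far above specimen 10. Clic6, a chloride channel family gene of choroid plexus, was the only member among the marker genes, and had 272, 275 and 139 against 115, 125 and 109. Specimens 6 and 8 were likewise highest for the sum of the choroid plexus markers, and the part of that tissue in the values of Clic6 was not tested. Sel1l3, Cspg5 and Trp63, a keratinocyte transcription factor, were the single members of the lists for the stress response (12 genes), glia (29 genes) and epidermis (10 genes). Trp63 had 84.6, 94.6 and 104 against 77.9, 49.0 and 59.2, while the epidermal marker sum was highest in specimen 8.

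A high scaled count gives more reads behind a value but depends on gene length, so it is no ranking of levels. Among the 5 members with the most scaled counts were Prrc2a, Ank1, Atp2a2 and Maged1, whose MSC treated means were 8.31%, 19.6%, 27.5% and 17.8% lower, with gaps of 1.45%, 8.31%, 12.5% and 4.99%. Prrc2a, an RNA-binding protein, had 7171, 7282 and 7689 against 7069, 6221 and 7012, and without specimen 18 its mean was 4.61% lower. Ank1, the ankyrin of red cells and muscle, had 6006, 6055 and 5104 against 4612, 4712 and 4473. Maged1 had 4201, 3679.9 and 3492 against 2697, 3326 and 3326, with specimen 13 lowest. By the authors' means, the median level of a member was 9.24 FPKM in sound trauma and 7.01 FPKM in MSC treated animals.

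At the edge of the rule, membership turned on very small differences. The narrowest gaps were those of Aars2, whose specimens 10 and 13 differed by 0.000765%, Klf9, with a gap of 0.00171%, and Bex1, with 0.0659%. Klf9, a Krüppel-like factor, had 1815, 1876 and 1985 against 1459, 1815 and 1733, and its mean was 11.8% lower with all libraries and 6.25% lower without specimen 13. The mean of Aars2 was 22.4% lower with all libraries and 14.4% lower without specimen 8. Just outside were Tmem57, Ddx24 and Mbd6, which missed separation by 0.174%, 0.179% and 0.196%. Mbd6 had 2011, 1963 and 1974 against 1724, 1802 and 1967. At the minimum of 20, Immp2l was kept with a lowest value of 20.8, and Gm13563 and Lyrm1 each with 21.4. Ccdc146 and Ubxn10 (lowest value 19.7 each) and Lrrc51 (18.4) were left out, although their groups did not overlap.

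Of the 192 members, 188 could be placed in the RefSeq gene order of GRCm38.p6, and 12 of them formed 6 pairs of direct neighbours. These were Dusp14 with Tada2a, Dock4 with Immp2l, Bap1 with Dnah1, Bag6 with Prrc2a, Timm50 with Supt5 and Tceal5 with Bex1. The mean of Dock4 was 42.2% lower with all libraries and 22.0% lower without specimen 8. The pair of Bap1 and Dnah1 ran unevenly, since Dnah1 was highest in specimen 8 with 106 against 59.0 in specimen 10, while Bap1, a deubiquitinase of chromatin, had 983, 1056 and 905 against 889, 815 and 876. Of the 192 members, 73 were in at least 1 of the lists and 119 in none.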

How the data were processed

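Total RNA of 6 left cochleae was sequenced (NuGen Universal Plus libraries, NovaSeq). The authors aligned reads with the AIR package to the C57BL/6NJ genome and deposited a signal per gene, the read count times 1 factor per library. The tool that counted reads, its strand setting and its filters are not given in the sources used here. Every value (100%) was a whole multiple of 1 read within a tolerance of 0.001 times its number of reads. This tolerance grows with the count, so the check could not fail for large counts. The authors also deposited 2 lists of changed genes (2741 down, 1137 up), with symbols for 3716, group mean FPKM, and an FDR and log2 fold change from NOISeq that were not used.

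limma 3.58.1 (R 4.3.3) was fitted to log2(scaled count + 1) of the 15970 genes that passed filterByExpr of edgeR 4.0.16, with Benjamini-Hochberg adjustment, and was tested on simulated data. DESeq2 1.42.0, edgeR and limma-voom on the recovered reads, other scalings, pseudocounts and filters, and each library left out were alternatives. Tables were handled in Python 3.11.15 with pandas 2.3.3.

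Members and lists were chosen with earlier results of these data known. Named genes were the 15 members with the widest gap, the 3 widest in each list with 2 or more members, the 5 with the highest mean, and the 3 on either side of the limit. All other genes named were chosen after their values were seen, and some genes withheld for evaluation are not reported here. The labels name separate specimens, and nothing in them gives a batch. Promoters were searched on both strands over 250 bases. The files hold no coordinates, and those of the promoters are from GRCm38.p6, another build than the files use.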

Additional observations from a re-analysis of the deposited data

How the results depend on the processing

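The number of members depended on scaling and on single libraries. It was 192 as reported, 106 with libraries scaled to total reads (90 shared with the 192), 206 by median ratio (184 shared) and 178 by upper quartile (177 shared), and 78 members (40.6%) separated under every scaling. With genes lacking a symbol kept it was 347, and with a gap of at least 1.2-fold it was 13. With 1 library left out, which makes separation easier, it ranged from 223 (without specimen 8) to 1059 (without specimen 10), with 296, 484 and 323 without specimens 6, 13 and 18. The median log2 difference of the members stayed between -0.44 and -0.30 under all alternatives run (-0.44 without specimen 10, -0.30 without specimen 8). In limma, genes past an adjusted p of 0.05 numbered 0 to 1 with a library left out, the 1 without specimen 10, and 0 under every other alternative. Members at an unadjusted p under 0.05 numbered 47 as reported, 20 with total reads, and 14 to 72 with a library left out (14, 17, 20, 25, 28 and 72 without specimens 20, 8, 18, 13, 6 and 10). Of 840 recomputed log2 differences of 60 named genes, 0 reversed. Most of these genes are members, whose groups do not overlap by the rule. Leaving out a library or changing the pseudocount could therefore not reverse their sign, and nothing is read from this count. Scaling to total reads raised the median log2 difference of all genes to 0.07. Clock genes that separated numbered 8 to 12 and cilium genes 9 to 27 with a library left out. No paired analysis was possible because the specimen numbers of the groups (6, 8 and 10 against 13, 18 and 20) share none.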
